A study of Mus musculus with 6 samples.

Results

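The enzymes of de novo purine synthesis were examined in a mouse embryonic stem cell study that sought the mRNA targets of a pair of RNA-binding proteins. These are Brf1, the product of Zfp36l1, and Brf2, the product of Zfp36l2, which attach to AU-rich elements of mRNAs and promote their decay. The 10 genes were named by symbol: Ppat, Gart, Pfas, Paics, Adsl, Atic, Adss, Impdh1, Impdh2 and Gmps. Each matched 1 row of the deposited table, so 10 of its 18312 genes are described. The labels list 6 libraries of wild-type E14 cells, a 129/Ola line, kept in medium with 15% serum and 1000 U/ml LIF, the cytokine that holds these cells in an undifferentiated state. They form 3 groups of 2, namely total RNA, RNA recovered from cytoplasmic extract with an anti-Brf1/2 antibody, and RNA recovered in the same way with rabbit IgG.

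The table gives 1 value per gene and names no library, so it could not be assigned to a group. It holds 22625281 counts. The question of whether purine synthesis mRNAs were recovered with Brf1 and Brf2 above the IgG background was not analysed here, and no difference between groups was computed. There is no replicate, and every value below is a single value with a counting interval. Such an interval covers counting error only, since it comes from the counts of a single set of values. Reads made by PCR are not independent molecules, so it may be too narrow even for that error. A level may come from total RNA, from immunoprecipitated RNA or from a mixture, and in bulk RNA fewer expressing cells and less RNA per cell cannot be told apart. The labelled cell type was checked on its markers. All 5 embryonic stem cell markers lay between 40.6 (Esrrb) and 605 (Pou5f1) FPKM, that is, fragments scaled to the length of the gene and to the total count. Of 7 fibroblast markers, 1 reached 1 FPKM (Thy1, 3.74), and of 4 measured primitive endoderm markers, 0 did, with Foxa2 highest at 0.603. With counts divided by the plain length of each gene model, 2 fibroblast markers reached it, as Col1a1 had 1.87 in place of 0.902.

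As background, cells build purines by assembling the ring on a ribose phosphate donor, phosphoribosyl pyrophosphate (PRPP), in 10 reactions that end at inosine monophosphate (IMP). In mammals 6 genes encode the enzymes of this trunk, several of them with more than 1 activity on the same protein, and IMP is then converted to AMP or to GMP by separate branches. The alternative route, salvage, reattaches free bases to PRPP. Proliferating cells, embryonic stem cells among them, draw on purines for DNA, RNA and energy metabolism.

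All 10 genes were well represented. Each had at least 1 FPKM, a level reached by 56.0% of all genes in the table. Of the 10, 9 had at least 25 FPKM, which 13.8% of all genes reached. The level of 25 FPKM was not among the planned thresholds and lies just under Pfas at 26.1. On the model length Impdh1, at 29.1, also exceeded it. Their median was 81.0 FPKM, beside 1.94 over all genes. Together they held 77422 counts, 0.342% of the total (Wilson 95% interval 0.340 to 0.345), and 0.254% of the summed FPKM. The levels spanned 25.6-fold, from Impdh1 to Paics (10.2-fold when counts were divided by the plain length of each gene model). The lowest, Impdh1, stood above 72.4% of all genes, at rank 5050. On the model length its rank was 2792.

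**Figure D1:**
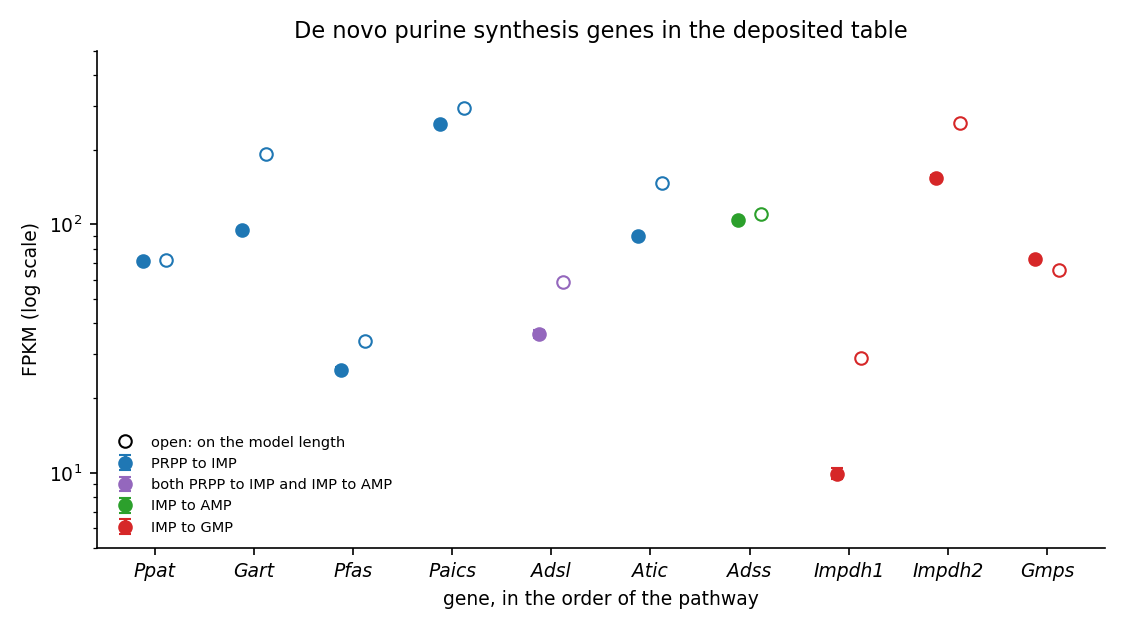
FPKM of the 10 genes on a log axis, in pathway order. Filled points are the authors' FPKM with the interval of their table (mostly smaller than the point), open points the same counts per kilobase of model length, and colours mark the part of the pathway. Paics is highest on both lengths (254 and 295) and Impdh1 lowest (9.95 and 29.1).

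The trunk opens with Ppat, the amidophosphoribosyltransferase that commits PRPP to the pathway and is its classic point of feedback control. Ppat had 71.0 FPKM (69.3 to 72.8) from 6534 counts. Gart is a protein with 3 activities, which catalyses the second, the third and the fifth reactions. It had 95.3 FPKM (93.7 to 96.8) from 14495 counts. Pfas, the amidotransferase of the fourth reaction, was the lowest gene of the trunk at 26.1 FPKM (25.3 to 26.8) from 4878 counts. Its model, at 6369 nt, is the longest of the 10. Consecutive steps were therefore unequal in mRNA level, with Pfas below Gart, whose product acts both before and after it.

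Paics, whose product carries out the carboxylation and the aspartate-linking step that follow, was the highest of the 10 at 254 FPKM (250 to 258) from 15877 counts. It ranked 206 among all genes in the table. Its level was 9.76 times that of Pfas (exact conditional 95% interval of the counts 9.45 to 10.1). Adsl, the lyase that removes fumarate both in the trunk and again on the way to AMP, had 36.3 FPKM (34.9 to 37.6) from 2812 counts. Atic, which adds the last carbon and closes the ring to IMP, had 89.6 FPKM (87.7 to 91.5) from 8648 counts. The 6 genes of the trunk summed to 573 FPKM, and Adsl is also counted among the genes that lead to AMP.

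Ppat and Paics, the first gene of the trunk and its most abundant one, are divergent neighbours with overlapping 5′ ends on chromosome 5. Their annotated start sites are 276 nt apart, and their first exons share 272 bases on opposite strands in GENCODE M21 (build GRCm38, not the mm9 build behind the table). Whether reads were counted by strand is not stated, so counts from those bases cannot be told apart between the genes. Despite their adjoining starts the genes differed in level, with Paics 3.58 times as high as Ppat (exact conditional 95% interval 3.48 to 3.69). On the model length the ratio was 4.09 (3.98 to 4.21). The RefSeq windows around both starts (GRCm38.p6, 250 bases before to 50 after the start) are shown because these starts adjoin. Promoter activity was not measured. Each is written 5′ to 3′ on the strand of its gene, Paics at chr5:76951052-76951351 on the plus strand and Ppat at chr5:76951529-76951828 on the minus strand. The 50 bases at the right end, from the start site on, are in capitals, as is a CACGTG in the Paics window.
Paics: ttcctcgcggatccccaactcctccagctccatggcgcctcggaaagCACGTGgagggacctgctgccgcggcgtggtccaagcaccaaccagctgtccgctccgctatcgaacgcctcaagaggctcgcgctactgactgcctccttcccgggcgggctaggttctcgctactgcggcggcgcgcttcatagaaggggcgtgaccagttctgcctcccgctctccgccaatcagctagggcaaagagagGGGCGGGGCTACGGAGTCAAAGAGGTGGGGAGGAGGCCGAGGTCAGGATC
Ppat: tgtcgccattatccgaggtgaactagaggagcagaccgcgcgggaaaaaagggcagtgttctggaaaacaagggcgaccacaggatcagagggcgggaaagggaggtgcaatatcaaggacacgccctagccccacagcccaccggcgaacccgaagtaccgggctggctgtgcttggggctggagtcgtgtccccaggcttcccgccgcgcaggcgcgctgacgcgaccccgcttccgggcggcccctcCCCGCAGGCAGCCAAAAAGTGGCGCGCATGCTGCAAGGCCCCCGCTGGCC

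CACGTG is the canonical E-box, the element bound by Myc with Max, and purine synthesis genes are textbook targets of Myc. RefSeq windows were found for 9 of the 10 genes (10 windows, since Impdh1 has an upstream and a downstream start), and the gene with none was Pfas. The motif, which reads the same on both strands, was present in the windows of 3 genes, Paics, Atic and Impdh2. It was found in 7.15% of all 32851 windows of this length, and in 10.3% of the 9789 windows of genes with at least 1 FPKM. The motif began 203 bases before the start of Paics, 110 before that of Impdh2 and 7 before that of Atic. The windows of Ppat, Gart, Adsl, Adss, Gmps and both starts of Impdh1 did not have these letters. For Ppat this depends on the window, since the CACGTG of the Paics window lies downstream of the Ppat start, beyond the bases searched. The GC box GGGCGG, searched on both strands, was in all 10 windows, against 35.7% of all windows and 64.7% of those of genes with at least 1 FPKM. CCAAT, also searched on both strands, was in 4 of the 10 windows, against 37.4% of all windows and 38.3% of those of genes with at least 1 FPKM. The E-boxes of Atic (chr1:71557137-71557166) and Impdh2 (chr9:108560314-108560343), both on the plus strand of GRCm38.p6, are shown for comparison with that of Paics, with the motif in capitals.
Atic: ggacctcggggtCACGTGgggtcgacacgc
Impdh2: gagctcgataagCACGTGgttacccagctc

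The branch from IMP to AMP uses Adss, the adenylosuccinate synthetase, followed by Adsl. Adss had 104 FPKM (101 to 107) from 6386 counts, the third highest of the 10. Its paralog Adssl1, known as the muscle form of the enzyme, had 0.942 FPKM (0.715 to 1.17) from 69 counts. Adss was thus 110 times as high as Adssl1 (exact conditional 95% interval 87.1 to 142, and 64.9 times on the model length), and nearly all counts for this reaction belonged to Adss.

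The branch from IMP to GMP begins with IMP dehydrogenase, for which there are 2 isozymes encoded by Impdh1 and Impdh2. Impdh2, which is known as the form of proliferating cells, had 154 FPKM (151 to 158) from 9421 counts. Impdh1, known as the constitutive form and for its role in the retina, had 9.95 FPKM (9.45 to 10.5) from 1583 counts. Impdh2 was 15.5 times as high (exact conditional 95% interval 14.7 to 16.4) and stood second among the 10, whereas Impdh1 stood last. The size of this gap depended on the length used, as on the model length the ratio was 8.82 (8.36 to 9.31). The isozymes are similar in sequence, and any reads common to both cannot be traced, since total and unique counts were equal in all 18312 rows. Gmps, the synthetase that aminates xanthosine monophosphate to GMP, had 72.3 FPKM (70.6 to 74.1) from 6788 counts.

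In order of FPKM, the genes were Paics, Impdh2, Adss, Gart, Atic, Gmps, Ppat, Adsl, Pfas and Impdh1. Of the neighbours in that order, only Gmps and Ppat had overlapping intervals, and their ratio was 1.02 (exact conditional 95% interval 0.984 to 1.05). Gart and Atic were the next closest, at a ratio of 1.06 (1.04 to 1.09). Ppat was 1.96 times Adsl (1.87 to 2.05), Adsl 1.39 times Pfas (1.33 to 1.46) and Pfas 2.62 times Impdh1 (2.47 to 2.77). On the model length the ratio of Pfas to Impdh1 was 1.17. Among all genes, Paics stood above 98.9%, Impdh2 above 98.1%, Ppat above 95.4% and Pfas above 86.7%.

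**Figure D2:**
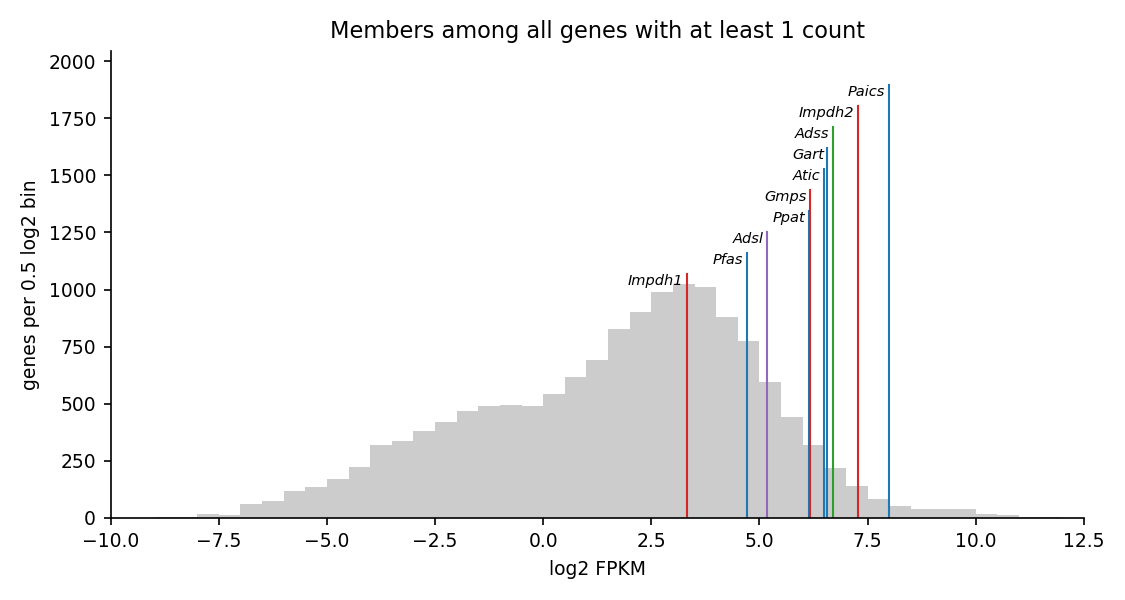
Histogram of log2 FPKM over the genes with at least 1 count (grey, genes per bin), with a vertical line for each purine synthesis gene, coloured as in the plot by pathway order; line heights only separate the names. The lines of 9 genes lie in the upper slope, at or above 26.1 FPKM, and that of Impdh1, at 9.95 FPKM, lies near the peak.

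The FPKM of several members rests on a large length correction. The authors' table divides by an effective length, which is the model length adjusted during quantification. The ratio of effective to model length had a median of 1.46 over the 10 genes and of 1.27 over all genes, with 5% of all genes below 0.640 and 5% above 1.94. It was 2.92 for Impdh1 and 2.02 for Gart, both above that range. It was 1.01 for Ppat and 0.908 for Gmps, the only one of the 10 under 1. On the model length, Gart had 193 and Atic 146, and both passed Adss at 111. Adsl had 58.9, Pfas 33.9 and Impdh1 29.1. Ppat (72.1) was then above Gmps (65.7), which reverses the closest pair of the order. Paics and Impdh2 were first and second, and Pfas and Impdh1 last, on either length.

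**Figure D3:**
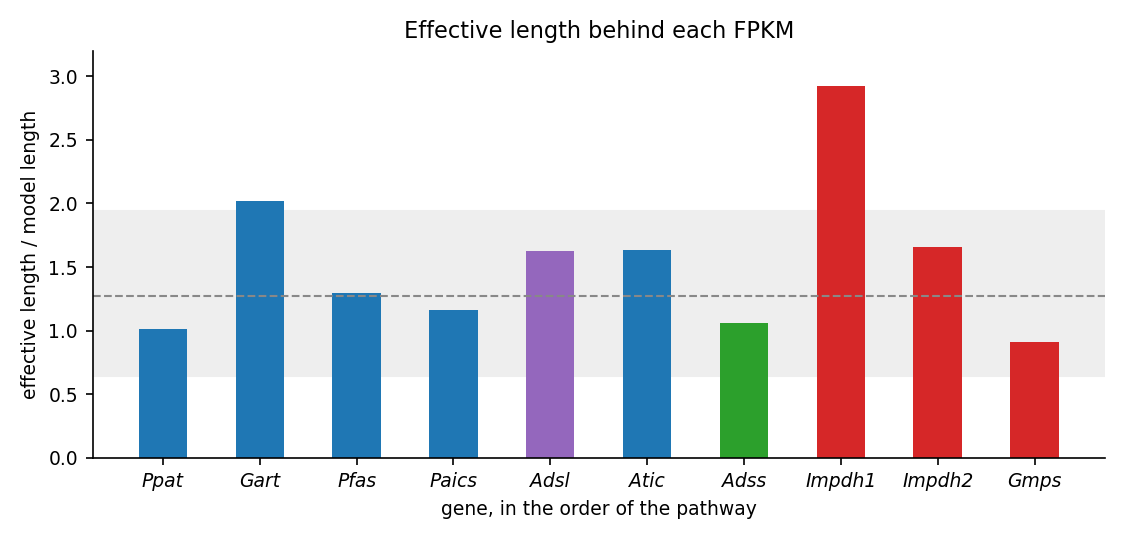
Effective length divided by model length for each gene (bars, from 0), in pathway order and with the same colours. The dashed line is the median of all genes (1.27) and the grey band spans their 5th to 95th percentile (0.640 to 1.94), and the bars of Impdh1 (2.92) and Gart (2.02) end above the band.

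The substrate PRPP comes from PRPP synthetases. Of 6 measured genes for these enzymes and their associated proteins, 5 reached 1 FPKM, and the median was 37.6. Prps1 had 90.8 FPKM (88.1 to 93.6) and Prps2 35.4 (34.0 to 36.8). Prps1l3, a gene named for its likeness to Prps1, had 52.7. Its value and that of Prps1 are uncertain because reads shared between these genes are not recorded. The same holds for any other genes of like sequence, since total and unique counts were equal in every row. Prps1l1 had 1 count. Prps1 and Atic had overlapping intervals, but on the model length Prps1 had 99.5 and Atic 146.

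Folate one-carbon units supply carbons to the reactions of Gart and Atic. Of 14 measured serine and folate genes, 12 reached 1 FPKM, and their median was 20.9. Phgdh, which starts serine synthesis from glycolysis, had 67.4 FPKM (65.4 to 69.4) and Mthfd1, the cytosolic enzyme that makes formyl-tetrahydrofolate, had 64.7 (63.3 to 66.0). These intervals overlap, and on the model length Mthfd1 (122) was above Phgdh (108). Mitochondrial Mthfd2 had 59.3 FPKM. The serine hydroxymethyltransferases had 50.5 FPKM (Shmt1, cytosolic) and 30.4 (Shmt2, mitochondrial). The formyl-tetrahydrofolate dehydrogenases Aldh1l1 and Aldh1l2, which remove these units, were under 1 FPKM, at 0.891 and 0.734. On the model length Aldh1l1 had 1.63.

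Salvage genes had a lower median than the de novo genes and spread more widely, with Hprt far below the rest. Of 8 measured, 7 reached 1 FPKM, and the median was 20.2 beside the 81.0 of the de novo list. Aprt, which salvages adenine, had 89.2 FPKM (85.6 to 92.8) from 2446 counts, and Adk, which phosphorylates adenosine, had 74.8. Pnp, which releases hypoxanthine and guanine from their nucleosides, had 34.8. Hprt, which salvages those bases, had 0.403 FPKM (0.188 to 0.619) from 14 counts and was the member under 1 FPKM. Hprt is ordinarily counted among housekeeping genes. Aprt was 221 times as high (exact conditional 95% interval 132 to 405), and even Impdh1 was 24.7 times as high (14.7 to 45.3). On the model length that last ratio was 63.3 (37.6 to 116). The labels give a wild-type genotype and no subline of E14. As background, derivatives of E14 that lack Hprt, selected for resistance to thioguanine, are widely used, but which derivative was grown is not stated, and the reason for the low value was not tested.

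**Figure D4:**
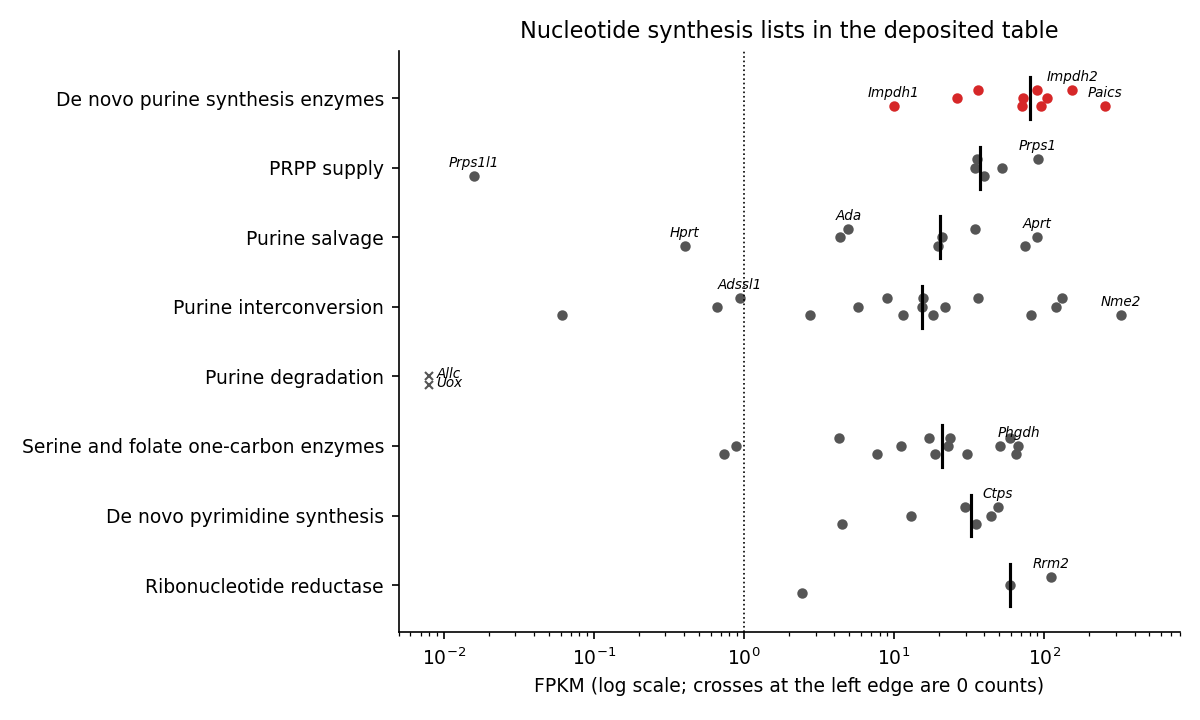
FPKM (log axis) of each measured gene in the de novo purine list (red) and 7 related lists (grey), with a black bar at each median above 0 and a dotted line at 1 FPKM; crosses mark genes with 0 counts, drawn at the left edge. The de novo purine genes lie between 9.95 and 254, and Hprt, at 0.403, is the salvage gene left of the dotted line.

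Further along, genes that interconvert purine nucleotides spread widely. Of 16 measured, 13 reached 1 FPKM, and the median was 15.4. On the model length 14 did, as Adssl1 had 1.70 in place of 0.942. The nucleoside diphosphate kinase Nme2 was highest at 323 FPKM, and Nme1 had 120. Guk1, guanylate kinase, had 36.0 FPKM. The AMP deaminases, which return AMP to IMP, were lower, with Ampd2 at 11.5, Ampd3 at 0.657 and Ampd1 at 0.0612. The GMP reductases had 15.3 (Gmpr2) and 2.73 (Gmpr). For the degradation of urate, Uox and Allc had 0 counts, and the limit that 0 counts allow, taken as 3 counts, was 0.0575 FPKM for Uox and 0.0616 for Allc.

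The pyrimidine synthesis list also had a lower median than the purine list. All 6 measured genes reached 1 FPKM, and their median was 32.6. Ctps, CTP synthetase, was highest at 49.0 FPKM, and Cad, the protein of the opening steps, had 35.4. Of the ribonucleotide reductase subunits, which turn ribonucleotides into deoxyribonucleotides, Rrm2 had 111 FPKM, Rrm1 59.3 and the p53-inducible Rrm2b 2.42. These lists describe 1 table, and no difference between them was tested.

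Brf1 and Brf2 recognise UAUUUAU-like elements, so the 3′ untranslated regions of the 10 mRNAs were searched on the transcript strand. The search used the heptamer TATTTAT, its shorter core ATTTA, and the longer form TTATTTATT, each of which is counted within any longer one. In the longest annotated region of each gene in GENCODE M21, TATTTAT was present once in each of 3 genes, Ppat, Pfas and Gmps, and TTATTTATT in 0. Of 16288 genes with such a region, 29.5% had TATTTAT and 8.15% had TTATTTATT. ATTTA was present in 6 of the 10 against 67.8% of all genes. Region lengths differ, from 65 nt for Impdh2 to 5845 nt for Gmps, and the share of genes with TATTTAT among those within 10% of the same length was 40.9% for Ppat, 42.3% for Pfas and 72.4% for Gmps. The sites are shown as matches to the heptamer only, with the motif in capitals. They begin 1269 nt after the stop codon in Ppat, 2087 nt in Pfas and 427 nt in Gmps.
Ppat: tagaaatataaTATTTATtaataactgaa
Pfas: tatatttaaagTATTTATgaaagtatttt
Gmps: tgaggaaacccTATTTATgccatagaaag

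The other 7 genes had no TATTTAT. Among genes with a region of like length, 19.4% had it for Paics, 0.862% for Impdh2, 31.7% for Adss and 43.1% for Adsl. Paics had 4 ATTTA and no TATTTAT in 695 nt, Impdh2 none of the 3 motifs in 65 nt, and Adss 2 ATTTA in 1283 nt. Gart, Atic and Impdh1 had none of the 3 motifs in 466, 960 and 764 nt. Gmps had 22 ATTTA, in a region of 5845 nt that exceeds the 4567 nt of its whole model in the table. Adsl had 2 ATTTA in 2198 nt, which likewise exceeds its model of 2109 nt. In the Adsl transcript nearest to the model, the region has 260 nt and no motif. The longest region of Gart belongs to a short transcript of 1865 nt, while that of the transcript nearest to the model has 153 nt, also without a motif. A match is a description of sequence. Binding was not measured in the values given here.

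**Figure D5:**
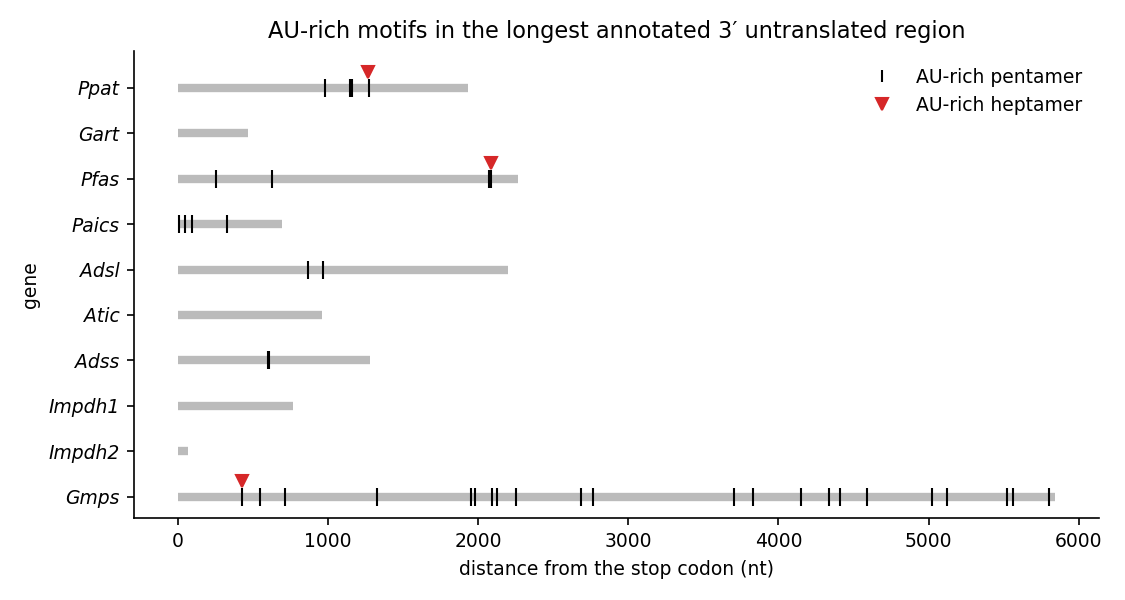
The longest annotated 3′ untranslated region of each gene, drawn to scale from the stop codon (grey bars, nt), with ATTTA as black ticks and TATTTAT as red triangles. The 3 triangles lie in Ppat, Pfas and Gmps, and 22 of the 39 ticks lie in Gmps.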

How the data were processed

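The labels describe RNA sequencing of 6 libraries in 3 groups of 2. The submitters' processing notes name the mm9 build, eXpress 1.1.1, Bowtie 1.1.2 and CASAVA 1.8.2, whose settings were not given in the sources used. The authors deposited total and unique counts, estimated counts (equal to the total counts in every row, per the file) and FPKM with bounds, as a single set with no library named, so the samples were compared in no test. Depth was 22625281 counts over 18312 genes, and 1 row with no gene name, which holds that same total, was left out. It was checked that the deposited FPKM equals the count over effective length and total, within 0.1%, in all 14468 genes with a count. The upper bound was the value plus 2 square roots of the count, on the FPKM scale and within 1% of that step, in 14461 of them. Members were matched by symbol. The 11 lists, that of the members included, and the motifs were chosen with earlier results of these data known. The genes named are the members and genes of those lists. Of the listed symbols, 7 were not matched and are not analysed here, and the value of 1 further listed gene is not reported. Ratios of 2 genes carry exact conditional binomial 95% intervals. Promoter windows are from RefSeq (GRCm38.p6), and 3′ untranslated regions of at least 50 nt from GENCODE M21. The motif search and the intervals of the ratios were tested on simulated data, and the other intervals were not. Alternatives were the model length, unique counts, 5 FPKM, 10 counts, omission of the Impdh pair and other 3′ regions. Software was scipy 1.17.1, pandas 2.3.3, matplotlib 3.10.9 and numpy 2.4.6 under Python 3.11.15.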

Additional observations from a re-analysis of the deposited data

How the results depend on the processing

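No paired analysis was possible because no column names a library, and leaving out a library was not possible for the same reason. On the model length, the median of the 10 genes was 91.3 FPKM, their sum 1260 (913 on the effective length), the ratio of Impdh2 to Impdh1 8.82 and that of Paics to Ppat 4.09. Of the 10 levels, 8 were then higher beyond their interval, 1 (Gmps) lower and 1 (Ppat) within it, and the medians of 6 of the 7 other lists were higher. The count of members at 1 FPKM or more, 10, was the same with a threshold of 5 FPKM or the model length. For 3 further alternatives no change was possible, so they say nothing about stability. Unique and total counts were equal in every row, all 10 genes exceeded the minimum of 10 counts, and Impdh1 and Impdh2 lie on opposite sides of the median, which was 81.0 without them. ATTTA was in 5 members in place of 6 with the shortest region or, an alternative chosen after the data were seen, the transcript nearest in length, and TATTTAT was in 3 under each. The member with ATTTA in its longest region but not in these was Adsl. A single set of values gives no spread between samples, and genes with few counts, such as Hprt, have wide intervals.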
